A study of Rana pirica with 9 samples.

Results

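The neuropeptide and secretory granule genes described here were npy, sst.1, chga, scg2, scg5, pcsk1, pcsk2 and trhr, measured in the tadpole brain of the brown frog Rana pirica. Members were the probe sets whose single symbol in the platform annotation, with the endings .L and .S removed, was one of these 8 genes. The rule found 9 probe sets among the 15491 tested, for 7 of the 8 genes, out of 6485 genes named by 1 symbol. There were 2 each for npy and chga and 1 each for sst.1, scg2, scg5, pcsk2 and trhr, and pcsk1 was not matched. One further probe set, annotated to both npy copies at once, was not used. The .L and .S endings name the 2 gene copies of the tetraploid clawed frog Xenopus laevis, for which the Affymetrix array was designed, so RNA of one frog was hybridized to probes for another. Whether a probe set reports the matching Rana pirica transcript is unknown. A pair of .L and .S probe sets need not stand for 2 genes of Rana pirica.

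The tadpoles had not yet grown hind limbs. The control group had 6 samples from tadpoles kept without predators and the salamander group 3 samples from tadpoles kept with salamander larvae, both for 8 days. No genotype, strain or age in days is given, and each sample was RNA pooled from 10 brains, so the spread is between pools and not between animals. Replicates are labelled as biological, but no label says whether the pools came from separate tanks or whether the pituitary was kept with the brain. The comparison asks whether these transcripts differed in brains of tadpoles that had lived beside a predator.

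Neuropeptides are made as larger precursor proteins that pass through the endoplasmic reticulum and Golgi into dense-core secretory granules. There, prohormone convertases cut them into active peptides, while granins such as chromogranin A and secretogranin II help to form the granule core. The peptides are released when the cell is stimulated and act on G protein-coupled receptors of other cells. In the vertebrate hypothalamus, peptides of this kind govern feeding, growth and the release of pituitary hormones.

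Values are log2 signals relative to the median of the 6 control arrays for the same probe set, as deposited, so that the control median of every probe set is 0 and the level of a transcript is unknown. Probe sets can thus be compared by their differences between groups but not by how strongly they are expressed, and the presence of brain markers in these samples could not be read as a level. Signals under 256 can leave a trace in the rounding of a value. Probe sets with such weak marks on at most 1 of the 9 arrays made up 47.5% of all those tested, and only npy.S of the 9 members. The marks miss some weak signals, and a control median under 256 can also mark a stronger array of its probe set. Their counts are thus not exact. If centring kept the order of signals, any value below both a marked one and the control median is weak. On npy.S, control 1 was marked at -0.62, and control 3 and salamander arrays 1 and 3 lay below it. On scg5.L control 4 was marked at 0.58, and on trhr.S control 1 at 0.33, above most other arrays. Many of the values below can thus rest on weak signals. The poly-A spike-in RNAs, which are added to the sample by the laboratory, separated the arrays into 2 levels. Their mean was 1.04 to 1.60 on controls 2, 3 and 4 and salamander arrays 1 and 2, and -2.04 to -1.54 on controls 1, 5 and 6 and salamander array 3. Both groups were present at each level.

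No member probe set passed the test of a difference between the groups. In limma's moderated test over all 15491 probe sets, 0 of the 9 passed at a Benjamini-Hochberg adjusted p under 0.05, against 0% of all probe sets, and adjusted p-values ran from 0.986 to 0.998. At an unadjusted p under 0.05 there were also 0 of 9, against 5.15% of all probe sets. The exact two-sided permutation test over arrays gave p-values between 0.0714 for chga.S and 0.905 for npy.L and scg2.L. The groups overlapped in all 9, and over all probe sets they failed to overlap in 2.33%. Differences (salamander minus control) lay between -1.12 for chga.L and 0.40 for pcsk2.L, with 7 of 9 below 0 and a median of -0.23. Of all probe sets 49.9% were below 0, with a median of 0.0016.

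**Figure D1:**
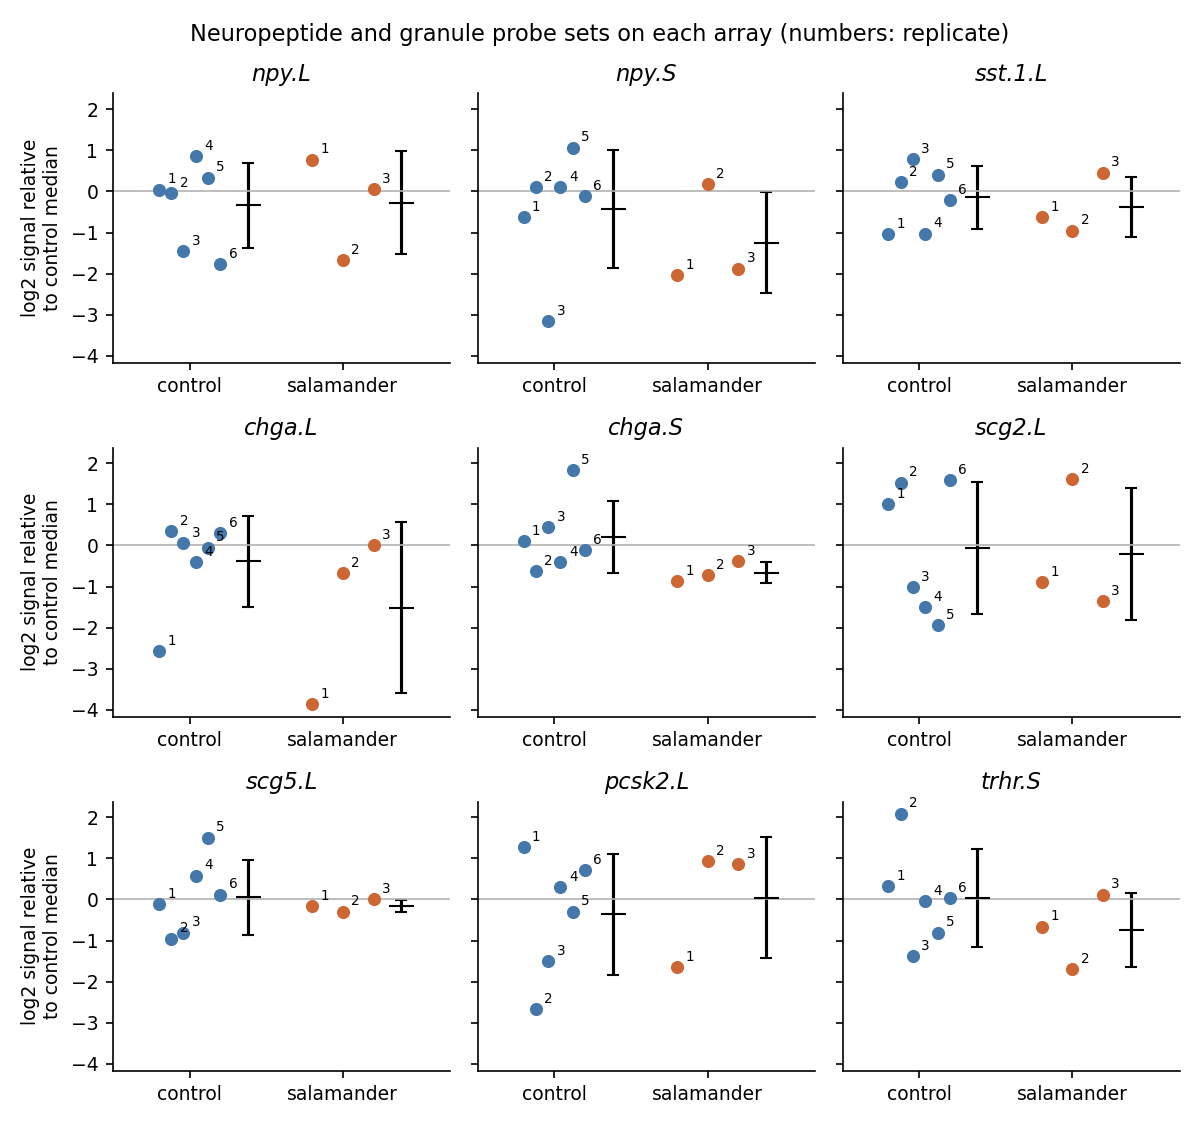
Log2 signal relative to the control median (vertical axis) of each member probe set on the 6 control arrays (blue) and 3 salamander arrays (orange), numbered by replicate, with the mean and SD as a bar. The groups overlap in every panel, and the salamander arrays of chga.S and scg5.L lie closer together than those of the other probe sets.

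The peptide precursors were measured by npy and sst.1. Neuropeptide Y, encoded by npy, is an abundant hypothalamic peptide that stimulates feeding. On npy.L the controls ran from -1.77 to 0.86 and the salamander arrays 1, 2 and 3 stood at 0.77, -1.66 and 0.05. The salamander arrays spanned nearly the whole control range, and the difference was 0.06 (SE 0.71, 95% confidence interval -1.50 to 1.61). On npy.S the controls ran from -3.15 to 1.06 and the salamander arrays stood at -2.04, 0.17 and -1.88. Here salamander arrays 1 and 3 lay below all controls but control 3, which was the lowest of all 9 arrays. The difference was -0.82 (SE 0.84, interval -2.66 to 1.03). Without salamander array 2 it was -1.53, and without salamander array 1 it was -0.42. Without control 3 it was -1.36 (unadjusted p = 0.0517 in limma, or 0.916 when adjusted). Within the spike-in levels it was 0.04 where the spike-ins were high and -1.99 where they were low, and in the latter salamander array 3 is the only one of its group.

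Somatostatin, encoded by sst.1, inhibits the release of growth hormone from the pituitary. On sst.1.L the controls ran from -1.04 to 0.79 and the salamander arrays stood at -0.63, -0.95 and 0.46. All 3 salamander arrays lay inside the control range. The difference was -0.23 (SE 0.56, interval -1.45 to 0.99). This interval excluded a 2-fold higher signal of the probe set in the salamander group and did not exclude a 2-fold lower one.

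The granule proteins among the members were chga, scg2 and scg5, and the 2 lowest differences of the members were those of chga. Chromogranin A, encoded by chga, is an acidic protein that binds calcium and condenses in the granule core. On chga.L the controls ran from -2.57 to 0.35 and the salamander arrays stood at -3.86, -0.67 and 0.0088. Salamander array 1 was the lowest of all arrays, while salamander array 3 lay among the controls. The difference was -1.12 (SE 0.88, interval -3.04 to 0.79), or 0.460 times the control level, and without salamander array 1 it was 0.06. Within the high spike-in level, which holds salamander arrays 1 and 2, it was -2.27 (unadjusted p = 0.0538 in limma), and within the low one it was 0.79. The lowest arrays of the 2 groups, control 1 and salamander 1, were the 2 whose chga.L values carried the mark of a signal under 256. On chga.S the controls ran from -0.62 to 1.83 and the salamander arrays stood at -0.87, -0.72 and -0.39.

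Of all members, chga.S came nearest to separating the groups. Salamander arrays 1 and 2 lay below all 6 controls, and salamander array 3 above 2 of them. Its difference was -0.87 (SE 0.56, interval -2.08 to 0.35), and limma gave it an unadjusted p of 0.145, or 0.986 when adjusted. It kept its sign with each array left out, between -1.03 and -0.54, and was -0.60 within the high spike-in level and -1.0 within the low one. Weak marks stood on 4 of its 6 control values and 2 of its 3 salamander values, more than on any other member. Its highest value, control 5 at 1.83, was among the marked ones. That mark can come from control 5 itself or from a control median under 256. In either case, if centring kept the order of signals, every chga.S value below the control median rested on a signal under 256. This covers the 3 salamander values, while control 5 itself may be stronger. No difference was called here, and pooled brain RNA could not tell fewer cells with granules from less granule RNA per cell.

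Secretogranin II, encoded by scg2, is a granin and the precursor of the peptide secretoneurin. On scg2.L the controls ran from -1.94 to 1.60 and the salamander arrays stood at -0.89, 1.62 and -1.34. Both groups were spread widely: controls 1, 2 and 6 lay above 1 and controls 3, 4 and 5 below -1. The replicate SD of 1.60 was higher than that of 96.2% of all probe sets, and the difference of -0.15 (SE 0.96, interval -2.24 to 1.94) had the widest interval of the 9. The gene scg5 encodes 7B2, a small granule protein that escorts and inhibits prohormone convertase 2. On scg5.L the controls ran from -0.95 to 1.51 and the salamander arrays stood at -0.16, -0.30 and 0.0030. The 3 salamander arrays lay within the control range and close together, at -0.15 ± 0.15 (SD, n = 3) against 0.05 ± 0.91 (SD, n = 6) in the controls. The difference was -0.21 (SE 0.57, interval -1.44 to 1.03).

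The processing enzyme was represented by pcsk2, which encodes prohormone convertase 2, the partner of 7B2 in granules. On pcsk2.L the controls ran from -2.66 to 1.28 and the salamander arrays stood at -1.64, 0.92 and 0.85. Salamander arrays 2 and 3 lay above all controls but control 1, and salamander array 1 below all but control 2. The difference was 0.40 (SE 0.89, interval -1.54 to 2.34), the highest of the members. It was 1.25 without salamander array 1 and -0.06 without control 2. Convertase 2 and its partner 7B2 stood on opposite sides of 0 in their differences, each by less than its SE.

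The one receptor among the members, trhr, encodes a receptor for thyrotropin-releasing hormone, which in frogs stimulates the secretion of melanotropin and prolactin. On trhr.S the controls ran from -1.39 to 2.08 and the salamander arrays stood at -0.66, -1.69 and 0.12. Salamander array 2 lay below all controls, and the other salamander arrays lay among them. The difference was -0.78 (SE 0.71, interval -2.34 to 0.78), and -0.31 without salamander array 2. It was -1.39 within the high spike-in level and 0.26 within the low one. Its ligand precursor, trh, was named outside the rule for named genes, after its values were seen, and had 3 probe sets, with differences of -0.84 (SE 0.84), -0.35 (SE 0.39) and 0.78 (SE 0.76). The related receptors trhr2 and trhr3, likewise named outside the rule, were at 0.43 (SE 0.58) and -0.19 (SE 0.60).

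**Figure D2:**
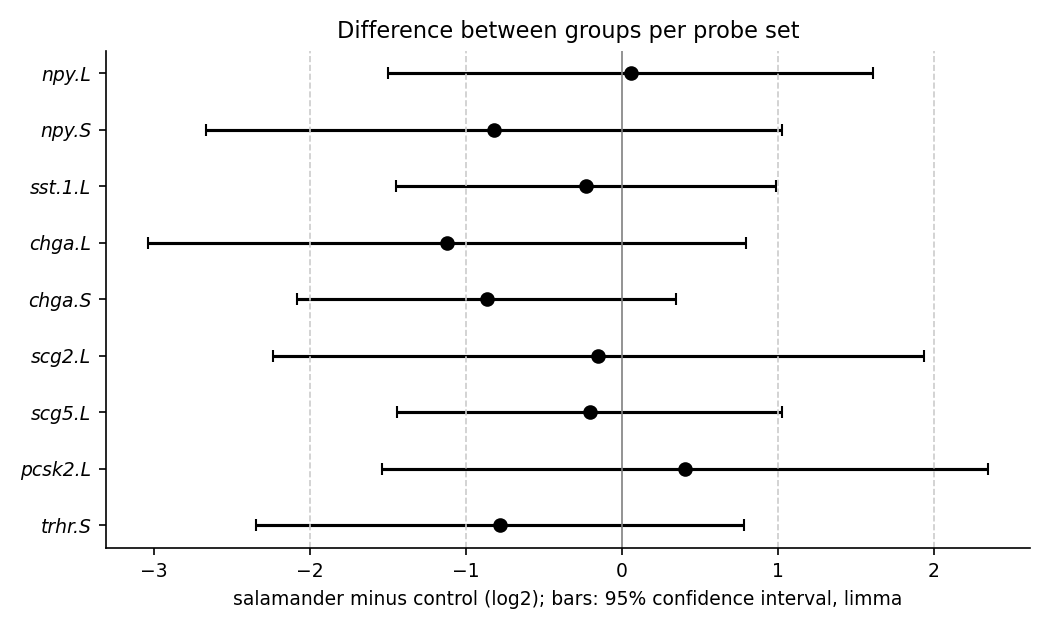
Difference between groups, salamander minus control on the log2 scale (horizontal axis), for each member probe set, with 95% confidence intervals from limma over 6 control and 3 salamander arrays; dashed lines mark 2-fold and 4-fold differences. All 9 intervals include 0, and 0 of the 9 lie wholly between the 2-fold lines.

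The precision of these arrays set wide limits on each probe set. These limits hold for its signal, and whether that signal reports the named gene in Rana pirica is unknown. Of the 9 member intervals, 0 excluded a 2-fold difference in both directions, against 2.78% of all probe sets. A 4-fold difference in both directions was excluded in 3, namely npy.L, sst.1.L and scg5.L, against 54.6% of all. A 2-fold higher level in the salamander group was excluded in 4, namely sst.1.L, chga.L, chga.S and trhr.S, against 31.9% of all. The replicate SD of the members ran from 0.75 to 1.60 with a median of 1.11, and the median over all probe sets was 0.96.

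Members differed in sign within each array. On salamander array 1, 8 of the 9 probe sets were below 0 and npy.L alone was above it, with a mean over the 9 of -1.11. On salamander array 2, 6 were below 0, with a mean of -0.36. On salamander array 3, 6 of 9 were above 0, while the mean was -0.23, with npy.S at -1.88 and scg2.L at -1.34. Among the controls the mean over members ran from -0.89 on control 3, where 6 were below 0, to 0.23 on control 5. The means of salamander arrays 2 and 3 thus lay within the control range, and that of salamander array 1 lay below it.

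**Figure D3:**
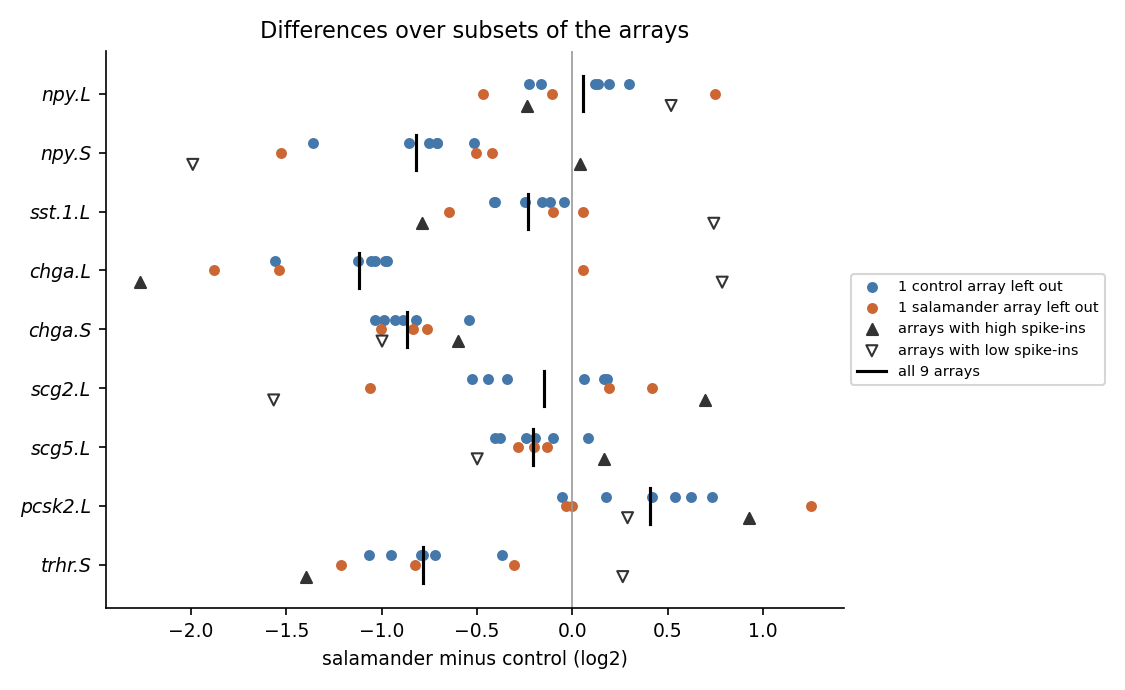
Difference between groups, salamander minus control on the log2 scale (horizontal axis), for each member probe set over all 9 arrays (line), with 1 control or 1 salamander array left out (blue and orange points) and within the arrays of high or low spike-in level (triangles). Points of 8 probe sets cross 0, and those of chga.S stay below it.

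Both genes with a pair of probe sets gave differing profiles. The npy.L and npy.S values had the same sign on 4 of 9 arrays and lay 1.36 apart on average, and the widest gap, 2.81, was on salamander array 1. The chga.L and chga.S values also had the same sign on 4 of 9 arrays, lay 1.09 apart on average, and were 3.0 apart on salamander array 1. Over the 745 genes with exactly 1 probe set for each gene copy, the median was 5 of 9 arrays with the same sign and an average distance of 1.09. In 49.7% of these genes the sign was the same on 4 or fewer arrays. The disagreement within npy and chga was thus common on this array, and how well either probe set reports its gene is unknown. The mean of the 2 probe sets had a difference of -0.38 for npy (interval -1.71 to 0.95) and -0.99 for chga (interval -2.25 to 0.26), each with an adjusted p of 0.996 in limma over 6485 genes.

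**Figure D4:**
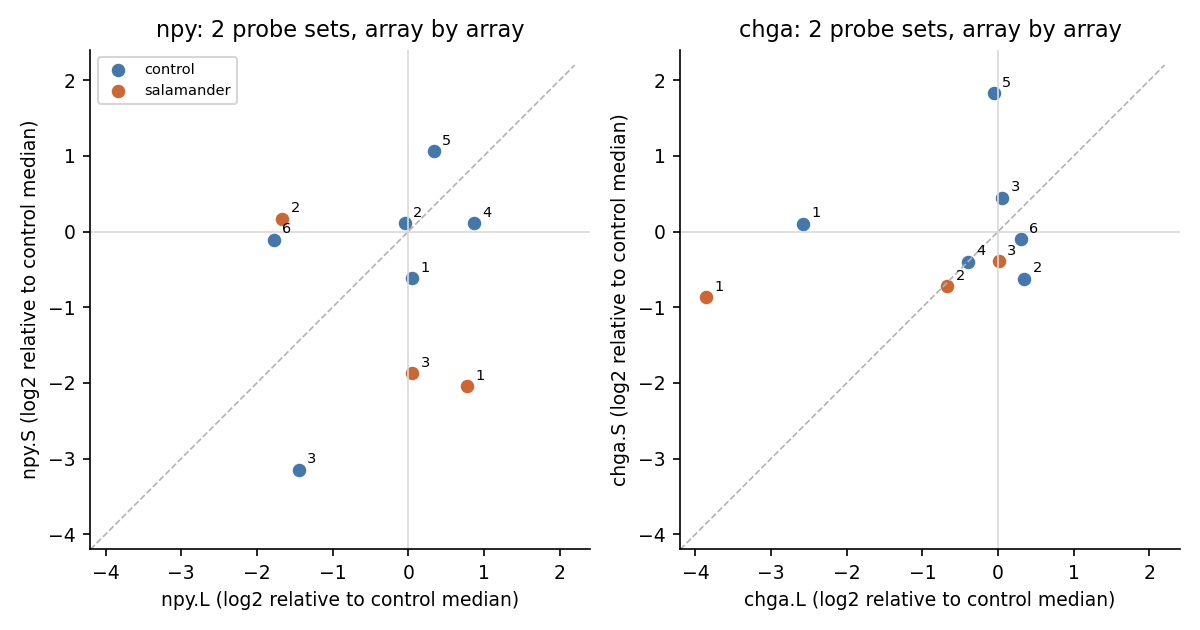
Log2 signal relative to the control median of the .L probe set (horizontal axis) against the .S probe set (vertical axis) of npy and chga, with 1 point per array, numbered by replicate, and a dashed line of equal values. Salamander array 1 lies farthest from that line in both genes, with its .L and .S values 2.81 and 3.0 apart.

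Array profiles most like those of the members belonged to genes outside peptide secretion. Of the 9304 tested probe sets with 1 symbol, 62 are on the peptide pathway list below. A closest gene outside that list was therefore likely for any member. Likeness was the mean absolute difference over the 9 arrays, for which the median over named probe sets was between 0.93 and 1.48. The closest to npy.L was chmp4b.L, a subunit of the membrane-severing ESCRT machinery, at 0.31, and the closest to npy.S was myd88.S, an adaptor of Toll-like receptors, at 0.36. For sst.1.L it was the matrix-associated gene ccn2.L at 0.28, for chga.L the histone methyltransferase gene ezh2.L at 0.46, and for chga.S the Polycomb-associated gene mtf2.S at 0.23. For scg2.L it was the collagen gene col9a1.L at 0.47, and for scg5.L the proteasome ATPase gene psmc5.L at 0.28. For pcsk2.L it was ctbp2l.S at 0.30, and for trhr.S extl3.L, which acts in heparan sulphate synthesis, at 0.41. The other probe set of npy or chga was not the closest to either of its pair, which among so many candidates carries little weight.

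The wider peptide pathway gave no call either. Of 172 genes listed, 45 were measured by 62 probe sets, members included, and 0 passed in either direction. At an unadjusted p under 0.05 there was 1 of 62, against 5.15% of all probe sets, and the groups failed to overlap in 0, against 2.33%. The median difference was -0.11, with 33 of 62 below 0. Without the members, the median was 0.01, with 26 of 53 below 0.

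Among peptide precursors, 8 of 18 probe sets were below 0, with a median of 0.04. This role also held crhbp.S at 0.58 (SE 0.68), whose product is a peptide-binding protein and not a precursor. The 1 probe set with an unadjusted p under 0.05 was pomc.S, for the precursor of corticotropin and melanotropin. Its controls ran from -1.64 to 0.70 and its salamander arrays stood at -2.70, -0.48 and -2.85. Salamander arrays 1 and 3 lay below all controls. The pomc.S difference was -1.90 (SE 0.66), and limma gave it an unadjusted p of 0.0138, or 0.865 when adjusted. It was -1.55 without salamander array 1, -2.66 without salamander array 2 and -1.48 without salamander array 3. Its unadjusted limma p was 0.0677 without salamander array 1 and 0.0751 without salamander array 3. With any other array left out, that p stayed under 0.05. Within the high and low spike-in levels the difference was -1.82 and -2.40. The probe set named for the other Xenopus copy, pomc.L, was at 0.60 (SE 0.75), and the pair need not report separate Rana genes. The mean of the pair was at -0.65 (SE 0.61).

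Among receptors, 9 of 16 were below 0, with a median of -0.20. Of the genes other than members, which are named above, the smallest p-values there belonged to calcrl.L, whose product binds calcitonin gene-related peptide and adrenomedullin, at -1.30 (SE 0.66), and to aplnr.S, the apelin receptor, at 0.56 (SE 0.46). The latter was 0.33 without salamander array 1, 0.89 without salamander array 3, and 0.83 and -0.021 within the high and low spike-in levels. Another probe set, aplnr.L, was at 0.72 (SE 0.71), with weak marks on 6 arrays. Among granule proteins, 7 of 12 were below 0, with a median of -0.11. Besides the members, the small GTPase rab27a.S, which tethers granules at the plasma membrane, was at 0.96 (SE 0.58). Another probe set, rab27a.L, was at 0.50 (SE 0.95). The probe set sytl5.L, of the synaptotagmin-like Rab27 effectors, was at -1.22 (SE 0.80). Within the high and low spike-in levels rab27a.S was at 0.11 and 1.99, and sytl5.L at -2.08 and 0.038. Without salamander array 1, sytl5.L was at -0.78. Among processing enzymes and inhibitors, 9 of 16 were below 0, with a median of -0.13. The convertase pcsk7.L was at -0.83 (SE 0.43) on 1 probe set and -0.24 (SE 0.75) on another. Carboxypeptidase E, cpe.L, which trims the cut peptides, was at -1.14 (SE 0.67) on 1 probe set and 0.51 (SE 0.79) on another. On the former cpe.L probe set the salamander arrays stood at -1.25, -1.65 and -1.93, below all controls but control 6 at -2.55. All 3 of these salamander values carried the weak mark, as did 1 of the control values. Adjusted p-values of calcrl.L, aplnr.S, rab27a.S, sytl5.L and the lower probe set each of pcsk7.L and cpe.L lay between 0.958 and 0.987.

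**Figure D5:**
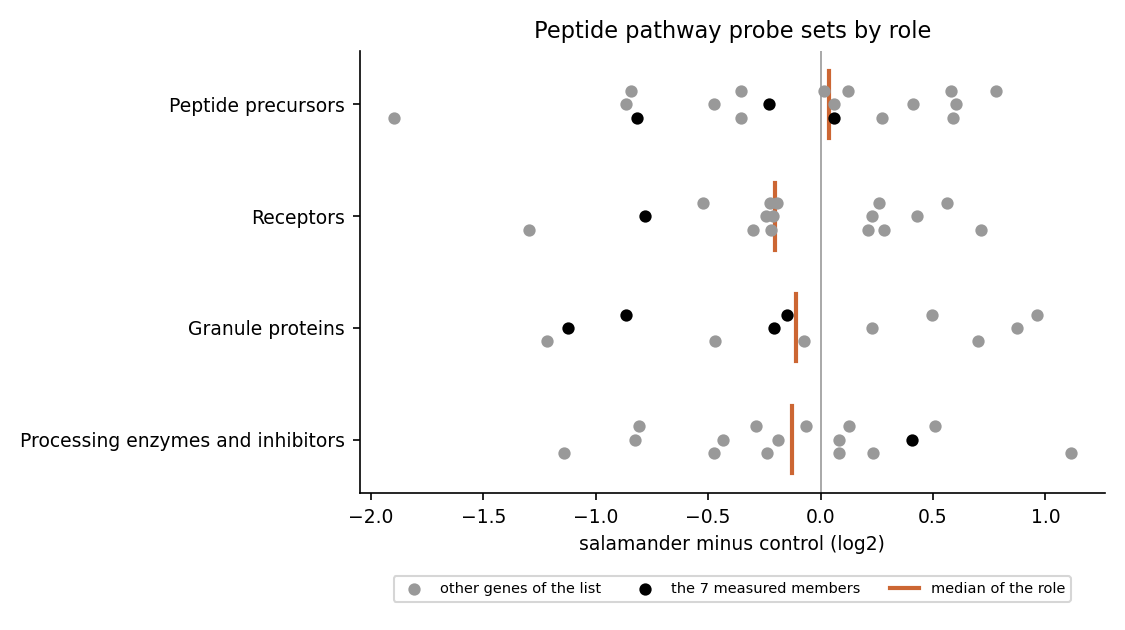
Difference between groups, salamander minus control on the log2 scale (horizontal axis), for the 62 probe sets of the peptide pathway list by role, with the 9 member probe sets in black, the others in grey and the median of each role in orange. The medians lie between -0.20 and 0.04, and pomc.S at -1.90 is the lowest point.

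Marker lists of cell types that such a sample could hold are given as array means of centred values. The pituitary endocrine list (7 of 13 genes, 11 probe sets) ran from -0.26 to 0.35 in controls and from -0.15 to 0.29 in the salamander group. The neuron list (11 of 12 genes, 15 probe sets) ran from -0.29 to 0.22 in controls and from 0.43 to 0.92 in the salamander group, with 0 probe sets called. The myelin list (2 of 5 genes, 4 probe sets) ran from -0.53 to 0.42 in controls and from -1.32 to -0.71 in the salamander group, also with 0 called. Neuron and myelin means thus did not overlap between groups, on opposite sides. Over all 15491 probe sets, 7759 had a difference above 0 and 5.15% had an unadjusted limma p under 0.05. In the neuron list 12 of 15 probe sets had a difference above 0, and 2 had an unadjusted limma p under 0.05. In the myelin list 0 of 4 were above 0, 1 had such a p, and 1 had at most 1 weak mark. Single probe sets failed to overlap in 2.33% of all, and that share was not computed for list means. The part of both lists in the members' differences was not tested. The erythrocyte list (6 of 9 genes, 6 probe sets) ran from -0.87 to 0.77 and from -0.77 to 0.13. Of its probe sets, 2 had a difference above 0 and 1 had an unadjusted limma p under 0.05. The skeletal muscle list (5 of 8 genes, 8 probe sets) ran from -0.55 to 0.09 and from -0.06 to 0.50. All 8 of its probe sets had a difference above 0, more one-sided than the neuron list, and 0 had such a p. In the pituitary list 6 of 11 were above 0 and 2 had such a p. The astroglia and ependyma list had 1 of 5 genes measured, at -0.83 to 0.43 and 0.01 to 0.06. Of its 2 probe sets, 1 was above 0 and 0 had such a p. Because values are centred, no marker can be called absent.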

How the data were processed

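Brain RNA of 9 samples was hybridized to one-colour Affymetrix Xenopus arrays. The authors used MAS5, the Affymetrix signal algorithm, per the submitters' processing notes, which name no version. Deposited log2 values cover 15611 probe sets, and 0 columns belong to other samples. In every row the median of the 6 controls was 0 within 9.5e-07. The logarithm, its base and this centring were read from the values, and scaling between arrays is unknown. Without levels, no intensity filter or trend was possible, and the number of arrays limits precision.

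All 15491 probe sets other than 120 Affymetrix controls entered limma 3.58.1 (R 4.3.3; lmFit and eBayes without a trend), salamander minus control, with Benjamini-Hochberg adjustment over all and a threshold of 0.05. The fit was tested on simulated data. Exact permutation tests used scipy 1.17.1, and figures matplotlib 3.10.9 under Python 3.11.15. A value was marked as weak where its single-precision step was too fine for signals of 256 or more, which misses some weak signals. A control median under 256 can also give the mark to a stronger value. The platform annotation gave 9304 tested probe sets 1 symbol and 195 several, and 5992 were unnamed here.

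Members, lists and tests were chosen with earlier results of these data known. Named genes were all members, for each the named probe set with the smallest mean absolute difference over 9 arrays, and, of the list's probe sets other than members, those with an unadjusted p under 0.05 or otherwise the 2 with the smallest p per role. No pairing of the arrays by replicate number was seen: deviations from group means of same-numbered arrays correlated at 0.0059, 0.016 and -0.0049. Alternatives were quantile normalization, array median centring, an unmoderated linear model, robust eBayes, bright probe sets (at most 1 weak mark), gene means, replicate and spike-in blocks, spike-in levels apart, and leaving out each array.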

Additional observations from a re-analysis of the deposited data

Results flagged for a closer look

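One array of the 6 controls lay far from the other 5 in 2 of the 16 member and named pathway probe sets. Such a far array is expected by chance in about 1 group of 20, and was found in 9.19% of all probe sets. For chga.L, control 1 was at -2.57, with the next lowest control at -0.40. For pomc.S, control 5 was at -1.64, with the next lowest control at -0.11. Without the far array the differences between groups were -1.56 for chga.L and -2.20 for pomc.S.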

How the results depend on the processing

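Under each alternative, 0 of the member probe sets, 0 of the pathway list and 0 of all probe sets were called, so no call could be lost. Over the alternatives, limma's adjusted p of the members lay between 0.916 and 1.0. With the bright probe sets alone, as the weak marks define them, npy.S was the only member left. At an unadjusted p under 0.05, the count over all probe sets, 798 in the main test, was 475 after quantile normalization, 356 of the 7351 bright probe sets, and 312 of 6485 gene means. The last 2 tested fewer features. For the pathway list that count was 1 in the main test, 0 for gene means, 2 in the unmoderated model and 2 on the arrays of high spike-in level. With 1 array left out it was between 0 and 3 of the 62. Over all 15491 probe sets the count was 719 in the unmoderated model and 856 on the arrays of high level. It was between 778 and 842 with 1 array left out.

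With the replicate number as a block, 0 probe sets were called. Controls 4, 5 and 6 have no salamander array of the same number. They add nothing to the difference in this fit, which compares the salamander arrays with controls 1, 2 and 3 alone. An unadjusted p under 0.05 was reached by 828, with 2 of them in the pathway list, and the sign turned in scg5.L, at 0.47. No label says that the numbers pair these arrays, and no pairing was seen in the values. The block also moved npy.L to 0.20, npy.S to -0.031, scg2.L to -0.71, pcsk2.L to 1.0, sst.1.L to -0.36, rab27a.S to 0.45, sytl5.L to -0.74 and cpe.L to -1.76, each by over 1.5 times. Within the high and low spike-in levels, where the low one holds only salamander array 3 of its group, the differences were -0.24 and 0.52 for npy.L, 0.041 and -1.99 for npy.S, -0.79 and 0.74 for sst.1.L, -2.27 and 0.79 for chga.L, 0.70 and -1.57 for scg2.L, 0.16 and -0.50 for scg5.L, 0.93 and 0.29 for pcsk2.L, and -1.39 and 0.26 for trhr.S. Each of these 8 thus moved by over 1.5 times in at least 1 level, and 7 of them turned sign in 1, pcsk2.L in neither. Among the named pathway genes, the sign turned within the low level in aplnr.S at -0.021 and sytl5.L at 0.038. The gene mean turned npy.L to -0.38. With 1 array left out, the sign turned in 6 members. These ran from -1.88 to 0.057 for chga.L, from -0.47 to 0.75 for npy.L, from -0.055 to 1.25 for pcsk2.L, from -1.06 to 0.42 for scg2.L, from -0.41 to 0.084 for scg5.L and from -0.65 to 0.057 for sst.1.L. The other 3, chga.S, npy.S and trhr.S, stayed below 0. The cause of these turns was not tested, and each of the values that turned had a 95% confidence interval across 0 to begin with.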
